A study of Mus musculus with 2 samples.

Results

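The hemoglobin genes and the erythroid heme enzyme gene Alas2 were measured in pancreas tissue of 1 female C57BL/6J mouse at the adult age of 10 weeks. Polyadenylated RNA from this animal was made into 2 technical replicate libraries, called replicate 2 and replicate 1 as in the labels, and replicate 2 was made in May 2015. Both are libraries of the same biological sample, the RNA was extracted with a kit for lipid-rich tissue, and the animal carried no allele or treatment named in the labels. The libraries form 1 group, so differences between them are differences between libraries and not between conditions. The members were the rows for Hba-a1, Hba-a2, Hbb-bs, Hbb-bt and Alas2, found by gene identifier in a GRCm38 annotation. All 5 were present, among 43346 gene rows.

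Hemoglobin is a tetramer of a pair of alpha chains and a pair of beta chains, each holding a heme group that binds oxygen. Hba-a1 and Hba-a2 both encode the adult alpha chain, and Hbb-bs and Hbb-bt both encode the adult beta chain of the haplotype that C57BL/6 mice carry. Alas2 encodes the erythroid form of aminolevulinate synthase, which makes the first committed product of heme synthesis in red cell precursors. Reticulocytes, the young red cells of the blood, have lost their nucleus but still hold globin mRNA, so globin transcripts are commonly found in RNA of organs that were not cleared of blood. Adult pancreas is not known as a site of red cell production.

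The alpha genes lie near each other on chromosome 11, with the theta gene Hbq1b between them, and the beta genes lie on chromosome 7, and each pair is so alike that many reads fit both copies. On GRCm38, the GENCODE M21 gene Hba-a1 spans chr11:32283511-32284465 and Hba-a2 spans chr11:32296489-32297298, both on the plus strand. Hbb-bs spans chr7:103826534-103828096 and Hbb-bt spans chr7:103812524-103813996, both on the minus strand. Each globin gene has 3 exons, whereas Alas2 (chrX:150547375-150570638, plus strand) has 11. The coding sequences without the stop codon are 426 bases long for both alpha genes, 441 bases for both beta genes and 1761 bases for Alas2.

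Within each pair, the coding sequences of the annotated main transcripts differed at 1 base, an identity of 99.8% for both pairs. Counted from 1 at the first base of the coding sequence, the differences are C381T between Hba-a1 and Hba-a2 and C417T between Hbb-bs and Hbb-bt. Both fall on the last base of a codon. The stretches around them are shown because, between these main transcripts, the division of reads rests on this base and on the untranslated ends. Other transcript models of a gene can also take reads, and they are not compared here. The differing base is in capitals.
Hba-a1 coding stretch: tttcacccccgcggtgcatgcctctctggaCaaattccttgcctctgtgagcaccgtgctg
Hba-a2 coding stretch: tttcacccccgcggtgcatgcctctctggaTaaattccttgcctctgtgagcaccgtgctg
Hbb-bs coding stretch: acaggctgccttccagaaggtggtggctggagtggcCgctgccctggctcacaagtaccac
Hbb-bt coding stretch: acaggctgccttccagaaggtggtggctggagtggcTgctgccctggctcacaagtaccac

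Of all 50-base windows of the Hba-a1 transcript, 67.5% were found unchanged in Hba-a2, and 86.9% of the Hba-a2 windows were found in Hba-a1. For the beta genes the shares were 65.8% of Hbb-bs windows in Hbb-bt and 58.3% of Hbb-bt windows in Hbb-bs. The windows come from the GENCODE M21 main transcripts, in which Hbb-bs-201 has 628 bases, whereas the deposited Hbb-bs-201 has 778. Alas2 has no such copy among the members.

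The 250 bases before the RefSeq start of each gene are shown for 4 members because the members differ there in sequence motifs that textbooks connect with erythroid promoters. The sequences are from RefSeq on GRCm38.p6, and all 5 members had an entry. RefSeq places the starts further in than the GENCODE gene spans given above, so part of each window lies inside the GENCODE gene: 3 bases for Hba-a2, 42 for Alas2, 73 for Hbb-bt, 161 for Hba-a1 and 168 for Hbb-bs. The Hba-a1 promoter is not printed, since its 300-base entry shares an identical run of 297 bases with that of Hba-a2, offset by 3 bases. The capitals mark matches to 4 motifs, each searched on both strands. They are the CCAAT box (on the reverse strand ATTGG), the CACCC box that KLF factors are known to bind (reverse GGGTG), the GATA motif written here as GATAA (reverse TTATC) and the TATA box written here as TATAA (reverse TTATA).
Hba-a2 promoter (chr11:32296242-32296491, plus strand): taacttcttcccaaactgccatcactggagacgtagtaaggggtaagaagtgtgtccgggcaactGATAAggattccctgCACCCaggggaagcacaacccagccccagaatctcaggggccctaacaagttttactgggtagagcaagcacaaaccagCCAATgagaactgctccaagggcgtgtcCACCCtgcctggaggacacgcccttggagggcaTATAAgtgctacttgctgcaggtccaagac
Hbb-bs promoter (chr7:103827929-103828178, minus strand): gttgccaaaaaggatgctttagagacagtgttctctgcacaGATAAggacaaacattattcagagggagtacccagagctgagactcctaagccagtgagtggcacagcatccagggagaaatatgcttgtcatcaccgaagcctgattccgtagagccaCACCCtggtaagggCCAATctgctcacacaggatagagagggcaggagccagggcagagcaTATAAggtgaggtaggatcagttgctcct
Hbb-bt promoter (chr7:103813924-103814173, minus strand): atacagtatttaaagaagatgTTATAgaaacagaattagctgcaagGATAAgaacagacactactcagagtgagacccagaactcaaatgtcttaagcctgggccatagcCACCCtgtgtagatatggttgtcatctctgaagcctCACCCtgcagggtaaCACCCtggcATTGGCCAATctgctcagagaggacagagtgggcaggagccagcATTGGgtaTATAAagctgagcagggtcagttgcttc
Alas2 promoter (chrX:150547167-150547416, plus strand): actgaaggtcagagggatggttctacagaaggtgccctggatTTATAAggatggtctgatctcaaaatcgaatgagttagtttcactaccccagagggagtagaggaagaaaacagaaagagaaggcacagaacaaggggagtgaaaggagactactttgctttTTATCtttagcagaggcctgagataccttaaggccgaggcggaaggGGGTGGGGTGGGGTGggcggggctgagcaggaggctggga

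CCAAT was present in the promoters of the 4 globin genes and had no match in the 250 bases before the RefSeq start of Alas2. It occurred in 33.8% of 32851 mouse promoters of the same length. CACCC was present in all 5 members, as in 52.0% of promoters, and GATAA in all 5, as in 22.6%. TATAA was also present in all 5 and in 22.8% of promoters. In the globin genes its nearest match lay 27 to 30 bases before the RefSeq start, whereas in Alas2 it lay 207 bases before it, where the forward and reverse matches overlap. Hbb-bt had 3 CCAAT matches and Hbb-bs had 1. These matches describe the letters only, and binding was not measured.

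Hemoglobin transcripts were a small but clear part of the transcript pool of the pancreas in both libraries. Levels between genes are compared in TPM, which divides each count by the gene's effective length and scales every library to the same total. The 4 hemoglobin genes together held 3281 TPM in replicate 2, against 1447 TPM in replicate 1, with a mean of 2364 ± 1297 TPM (SD, n = 2 technical libraries). They made up 0.328% of all TPM in replicate 2, against 0.145% in replicate 1. In this bulk sample, the level itself cannot be split into the number of red cells and the globin RNA per cell. That applies to both libraries alike, which come from the same biological sample, so it does not describe the gap between them. The tissue label was matched by its own markers: all 8 pancreas genes looked up were detected, with the colipase gene Clps at 24610 and 24016 TPM and the lipase gene Pnlip at 15515 and 18150 TPM in replicates 2 and 1.

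Among the members the order of levels was the same in both libraries. Hbb-bs, the more abundant beta gene, had 1291 TPM in replicate 2 and 578 TPM in replicate 1 (935 ± 504, SD, n = 2), and stood at rank 55 and rank 72 of all genes. Hba-a2, an alpha gene, had 934 and 436 TPM in the same order (685 ± 352), at ranks 60 and 82. Hba-a1, the other alpha gene, had 854 and 353 TPM (603 ± 354), at ranks 62 and 96. All 3 were higher in replicate 2. Among these 3 genes the difference between neighbours in the order had the same sign in both libraries. Its mean was smaller than the SD of each gene between the libraries. That SD holds the shift that all 3 genes share, so it does not measure how certain the order within a library is.

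Hbb-bt, the second beta gene, had 202 TPM in replicate 2 and 79.7 TPM in replicate 1 (141 ± 86.3, SD, n = 2), at ranks 151 and 312. It lay below the other 3 globin genes in both libraries. Alas2 was far below, with 5.57 TPM in replicate 2 and 8.34 TPM in replicate 1 (6.96 ± 1.96, SD, n = 2), at ranks 4038 and 3231. It was the only member that was lower in replicate 2 on the TPM scale.

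**Figure D1:**
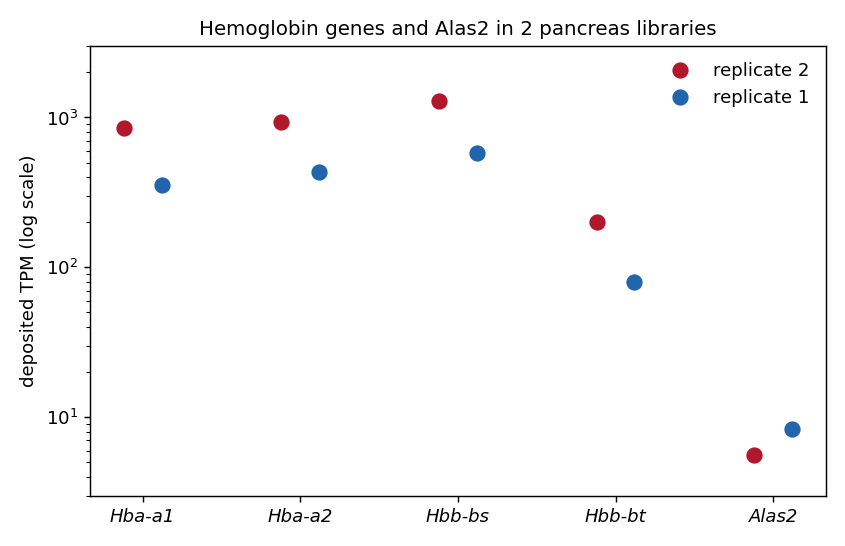
Deposited TPM on a log axis for each of the 5 members, with 1 point for replicate 2 and 1 for replicate 1. The globin genes sit between 79.7 and 1291 TPM and are higher in replicate 2, whereas Alas2 sits at 5.57 and 8.34 TPM and is lower there.

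The counts behind these levels differed in how well the reads could be placed. Hba-a1 had an expected count, the estimated number of reads from the gene, of 3506 in replicate 2 and 1652 in replicate 1, and Hba-a2 had 2820 and 1492. The deposited posterior SD of the count, which measures how uncertain the division of shared reads is, was 47.5 in replicate 2 and 36.8 in replicate 1 for both alpha genes. It was identical for the copies, which share the same pool of reads. As a share of the count this was 1.36% and 2.23% for Hba-a1 and 1.68% and 2.47% for Hba-a2 in replicates 2 and 1.

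Hbb-bs had an expected count of 4980 in replicate 2 and 2768 in replicate 1, and Hbb-bt had 836 and 376. The posterior SD was 21.3 and 14.7 for both beta genes, or 0.428% and 0.530% of the Hbb-bs count and 2.55% and 3.90% of the Hbb-bt count. The beta genes were thus divided with a smaller SD than the alpha genes in both libraries. Alas2 rested on 77 counts in replicate 2 and 108 in replicate 1, with a posterior SD of 0 in both, so no part of its count was uncertain by this measure. Its CPM, the count scaled by the library total, was 7.86 in replicate 2 (6.20 to 9.82, 95% exact interval) and 11.4 in replicate 1 (9.38 to 13.8). Such intervals cover counting error only, since PCR copies of a read do not represent separate molecules.

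The libraries differed widely outside the members. The total of expected counts was 9797569 in replicate 2 and 9441559 in replicate 1. The noncoding gene Gm42418 held 42.8% of counts in replicate 2 and 16.9% in replicate 1, and mitochondrial genes held 3.17% and 17.6%. For the ratio between libraries the totals were therefore scaled with TMM factors, which centre the bulk of genes, and the median log2 ratio over 12452 tested genes was -0.01. With plain library totals that median was -0.55, a shift of -0.54, and every member moves by it.

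The 4 hemoglobin genes were all higher in replicate 2, by 2.51-fold to 3.10-fold. A gene counted as called when the exact binomial test of its counts gave an adjusted p below 0.05 over all tested genes and its log2 ratio, replicate 2 over replicate 1, was at least 1 in either direction. By this rule 4 of the 5 members were called higher and none lower, while 8.31% of all tested genes were called higher and 12.3% in either direction. The log2 ratio was 1.57 for Hba-a1 (95% exact interval 1.48 to 1.65), 1.40 for Hba-a2 (1.31 to 1.49), 1.33 for Hbb-bs (1.26 to 1.40) and 1.63 for Hbb-bt (1.46 to 1.81). This test compares these libraries and holds counting error only.

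Alas2 did not follow the globin genes. Its log2 ratio was 0.00 (95% exact interval -0.45 to 0.43, adjusted p = 1.00 in the exact binomial test). The whole interval lay below the intervals of all 4 globin genes. With library totals the ratio was -0.54 (-0.98 to -0.11), also below the threshold of size.

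**Figure D2:**
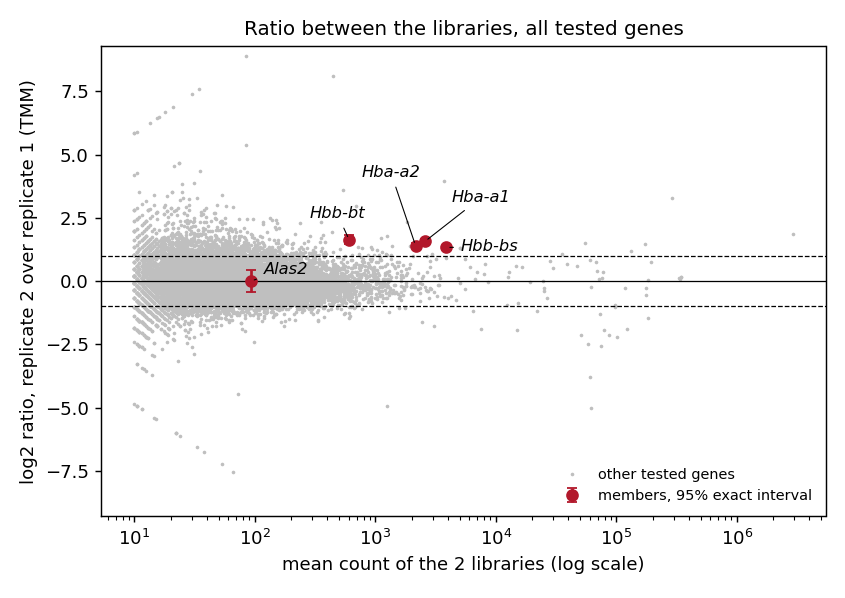
The log2 ratio of replicate 2 over replicate 1 with TMM scaling, against the mean count on a log axis, for all 12452 tested genes in grey and the members in red with 95% exact intervals; dashed lines mark the threshold of 1 in size. The globin genes lie at 1.33 to 1.63 among genes of high count, and Alas2 lies at 0.00.

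The size of the globin difference depended on the scaling and on a correction for base composition and transcript length, while its direction did not. With library totals Hba-a1 at 1.03 and Hbb-bt at 1.10 were still called, Hba-a2 at 0.86 and Hbb-bs at 0.79 were not, and 2.75% of tested genes were called higher. Genes of high GC content were generally higher in replicate 2: among genes whose main transcript is 55 to 60% GC the median log2 ratio was 0.42 and 18.8% were called higher, against 0.07 and 6.59% at 50 to 55% GC. The Hba-a1 and Hba-a2 transcripts are 57.2% and 56.9% GC, and the Hbb-bs and Hbb-bt transcripts are 51.3% and 50.8%. Genes with short transcripts were higher in replicate 2 as well. Below 800 bases the median was 0.16 and 14.6% were called higher, against -0.12 and 4.46% at 3000 bases or more. The main globin transcripts have 554 to 778 bases. Alas2 has 2037, in a class (1500 to 3000 bases) with a median of 0.07 and 8.50% called higher.

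With a smooth trend on GC content and transcript length subtracted, the alpha genes fell below the threshold and the beta genes did not. Hba-a1 then stood at a log2 ratio of 0.88, with an exact interval from 0.80 to 0.97, and Hba-a2 at 0.73 (0.64 to 0.82). Hbb-bs was at 1.16 (1.09 to 1.23) and Hbb-bt at 1.49 (1.32 to 1.67), both called, in a fit that called 3.89% of tested genes higher. For Hbb-bs the fit joined the deposited length of 778 bases to the GC content of the 628-base GENCODE M21 transcript, so its corrected value is less certain. Alas2, with a transcript of 53.3% GC, was at -0.24 (-0.68 to 0.19). The globin genes thus stayed above Alas2 by intervals that do not overlap, with and without the trend.

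Alpha and beta transcripts were of the same order, with alpha higher in TPM. The ratio between them was the same in both libraries on the TPM scale, but it depended on how length was treated. The alpha genes summed to 1788 TPM in replicate 2 and 789 TPM in replicate 1, and the beta genes to 1493 and 658 TPM. The alpha to beta ratio was 1.20 in replicate 2 and 1.20 in replicate 1. Both chains were 2.27-fold higher in replicate 2 on this scale.

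In counts the ratio was lower and differed slightly between the libraries. Replicate 2 held 6326 alpha and 5816 beta counts, a ratio of 1.09 (1.05 to 1.13, 95% exact interval), whereas replicate 1 held 3144 of each, a ratio of 1.00 (0.951 to 1.05). The ratio was 1.09-fold higher in replicate 2 (1.02 to 1.16, adjusted p = 0.00856 by Fisher's exact test, two-sided, over the 4 ratios tested). With the GC and length trend removed, the log2 ratio was 0.88 for Hba-a1 and 0.73 for Hba-a2. Both lay below Hbb-bs at 1.16 and Hbb-bt at 1.49, so the direction turned round. The alpha to beta ratio was not tested with the trend removed. Counts ignore that the transcripts differ in length. Divided by coding length, an alternative chosen after seeing the data, the ratio was 1.13 in replicate 2 and 1.04 in replicate 1. Divided by the effective length of the full coding transcript of each gene, a second such alternative, it was 1.42 and 1.33.

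**Figure D3:**
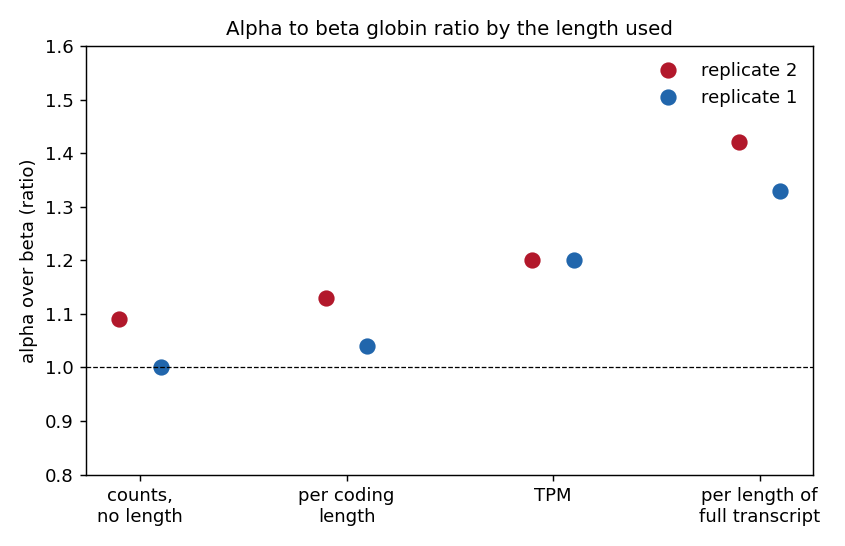
The ratio of summed alpha to summed beta globin in replicate 2 and replicate 1 for 4 ways of treating transcript length; the dashed line marks equal amounts. The ratio runs from 1.00 to 1.42, and the libraries coincide only on the TPM scale, at 1.20.

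The match on the TPM scale came with a change in how Hbb-bs was divided among its transcript models. The protein-coding Hbb-bs-201 took 3081 of the gene's counts in replicate 2 and 2192 in replicate 1 (posterior SD 52.7 and 44.6). The shorter Hbb-bs-202, which GENCODE M21 types as a retained intron, took 1899 and 576 (posterior SD 51.8 and 45.0). This is 38.1% of Hbb-bs counts in replicate 2 and 20.8% in replicate 1, a gap many times the posterior SD.

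Per length, Hbb-bs-202 held 49.3% of the gene's TPM in replicate 2 and 29.5% in replicate 1. The effective length of Hbb-bs, which is weighted by these shares, was accordingly shorter in replicate 2, at 512 bases, than in replicate 1, at 548, while Hbb-bt had 550 and 540. The deposited lengths of Hbb-bs-201 and Hbb-bs-202 (778 and 549 bases) differ from those of GENCODE M21, so the type given by M21 may not describe the deposited model. No comparable split was seen at the other globin genes. The main transcripts of Hba-a1 and Hba-a2 each held 99.6% of their gene's TPM in replicate 2 and 100% in replicate 1, and Hbb-bt has 1 transcript model.

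**Figure D4:**
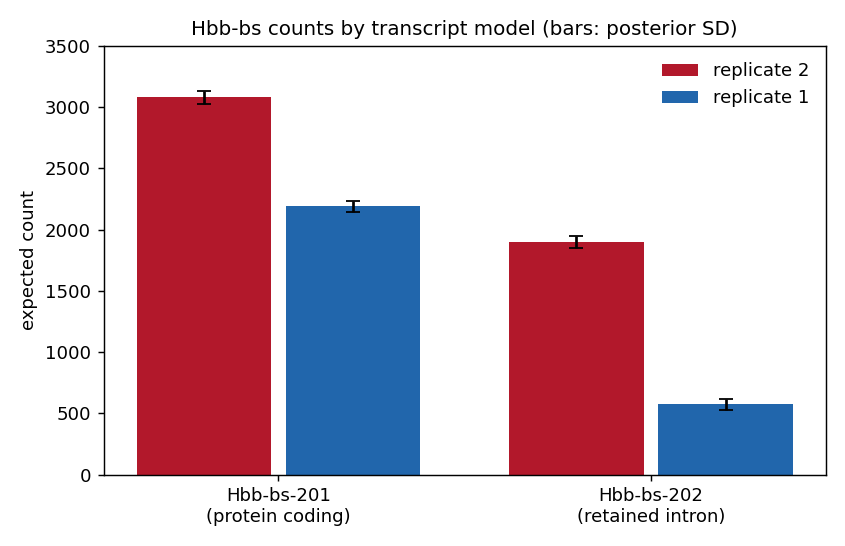
Expected counts of the 2 Hbb-bs transcript models that received reads, in replicate 2 and replicate 1, with bars for the deposited posterior SD. Hbb-bs-202 had 1899 counts in replicate 2 and 576 in replicate 1, whereas Hbb-bs-201 had 3081 and 2192.

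Within the alpha pair the copies were used to nearly the same degree, and within the beta pair Hbb-bs dominated. Hba-a1 made up 47.7% of alpha TPM in replicate 2 and 44.7% in replicate 1. Its share of alpha counts was higher, at 55.4% and 52.5%. TPM divides by length, and the annotated Hba-a1 transcript has 699 bases against 554 for Hba-a2. RefSeq places the Hba-a1 start 161 bases inside this annotation, and which start the reads follow was not tested. Which alpha gene leads therefore depends on the length used. The count ratio Hba-a1 to Hba-a2 was 1.24 in replicate 2 (1.18 to 1.31, 95% exact interval) and 1.11 in replicate 1 (1.03 to 1.19), adjusted p = 0.00856 by Fisher's exact test.

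Hbb-bs made up 86.5% of beta TPM in replicate 2 and 87.9% in replicate 1, and 85.6% and 88.0% of beta counts. The count ratio Hbb-bs to Hbb-bt was 5.96 in replicate 2 (5.53 to 6.42) and 7.36 in replicate 1 (6.61 to 8.22). It was 0.809-fold in replicate 2 relative to replicate 1 (0.708 to 0.923, adjusted p = 0.00271 by Fisher's exact test). These tests treat the expected counts as read counts and leave out the posterior SD, so their p-values for the copy pairs are too small.

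Alas2 was scarce beside the globin genes, and more so in replicate 2. There were 6.34 Alas2 counts per 1000 hemoglobin counts in replicate 2 and 17.2 in replicate 1. The 4 hemoglobin genes relative to Alas2 were 2.71-fold higher in replicate 2 (2.00 to 3.68, 95% interval, adjusted p = 9.94e-11 by Fisher's exact test, two-sided). This ratio needs no scaling of the libraries. Per length, Alas2 stood at 1.70 TPM per 1000 hemoglobin TPM in replicate 2 and 5.76 in replicate 1.

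The Alas2 transcript models were too thinly covered to compare. Alas2-201 took 52.8 counts in replicate 2 and 47.5 in replicate 1, and Alas2-202 took 24.2 and 53.8, with posterior SDs of 9.71 to 14.3. In replicate 1 the short Alas2-204 took 6.67 counts (posterior SD 4.17) but 22.5% of the gene's TPM, and in replicate 2 it had none. The effective length of the gene was 1836 bases in replicate 2 and 1482 in replicate 1, and its log2 ratio on the TPM scale was -0.58.

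The other globin genes were absent or low. No counts were found in either library for Hba-x, Hbb-y, Hbb-bh1 and Hbb-bh2, the embryonic and early chains and their relatives, or for Hbq1a and Hbq1b, the theta genes. Taking 3 counts as the limit, a count of 0 leaves room for a level of 0.306 CPM in replicate 2, and of 0.318 CPM in replicate 1. Mb, the muscle oxygen store myoglobin, had 2 counts in replicate 2 and 0 in replicate 1, and Ngb, neuroglobin, had 0.550 and 0.470 TPM. Cygb, cytoglobin, which fibroblasts and stellate cells express, was the only one above 1 TPM, at 9.02 TPM in replicate 2 and 10.8 in replicate 1. It was not called, with a log2 ratio of 0.02.

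Several transcription factors and membrane proteins of developing red cells were at or near 0, while others of the same lists were detected. Gata1, the master regulator of erythroid genes, had 0 counts in both libraries, and Klf1, the activator of the adult beta genes, had 1 count in replicate 2 and 0 in replicate 1. The band 3 gene Slc4a1 had 1 and 5 counts, and the protein 4.2 gene Epb42 had 0 in both. Gata1, Klf1, Slc4a1 and Epb42 were singled out after their values were seen. Of 11 erythroid transcription factors 5 reached 1 TPM in both libraries, led by Nfe2l1 (17.1 and 23.3 TPM), Ldb1 (16.4 and 15.7 TPM) and Klf3 (4.67 and 13.0 TPM), which many other cells also express, with Lmo2 at 5.65 and 10.2 TPM.

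Of the 7 erythroid factors tested, 1 was called higher, Zfpm1, a partner of GATA factors, at 4.53 and 1.13 TPM with a log2 ratio of 2.11. The median was 0.13, beside -0.01 over all tested genes, of which 8.31% were called higher and 12.3% in either direction. With the GC and length trend removed Zfpm1 was at 0.62 and not called, and with library totals Lmo2 at -1.28 and Klf3 at -1.51 were called lower. Library totals called 2945 of all 12452 tested genes, with 11.6% of these calls higher, so most calls under that scaling were lower. Of 17 genes of the red cell membrane and skeleton 5 reached 1 TPM in both libraries, and none of the 7 tested was called, with a median log2 ratio of 0.01, though with library totals Tmod1 was called lower at -1.37. The highest were the water channel gene Aqp1 (47.8 and 38.8 TPM), Epb41 (9.28 and 13.5 TPM) and Gypc (3.26 and 3.36 TPM).

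The heme pathway beyond Alas2 was expressed throughout. All 12 listed genes of heme synthesis reached 1 TPM in both libraries, with the highest values for Urod (13.7 and 6.68 TPM), Ppox (10.1 and 10.6 TPM) and Tmem14c (11.1 and 7.75 TPM) in replicates 2 and 1. Alas1, which carries out the same step as Alas2 in most tissues, had 3.43 TPM in replicate 2 and 7.94 in replicate 1, beside 5.57 and 8.34 TPM for Alas2. Among the 12 genes tested 2 were called higher and none lower, in a comparison that called 8.31% of all tested genes higher. They were Alad, the second enzyme of the pathway, with a log2 ratio of 1.01, and the mitochondrial carrier gene Slc25a38, with 1.36, and the median was 0.35. Neither call held with library totals (0.47 and 0.83) or with the trend removed (0.26 and 0.91). Instead Alas1 was called lower under both, at -1.34 with library totals and -1.04 with the trend removed, and Cpox (-1.25) and Fech (-1.07) with library totals.

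Late erythroid genes were detected in part. Of 22 matched genes 15 reached 1 TPM in both libraries, and none of the 17 tested was called in either direction, with a median log2 ratio of -0.16. Over all tested genes 12.3% were called in either direction. Isg20 was called lower with library totals, at -1.32, and with the trend removed, at -1.15. The leading ones were Gpx1 (48.8 and 44.5 TPM) and Prdx2 (20.0 and 20.1 TPM), which remove peroxides. Bnip3l (9.83 and 18.2 TPM), which acts in mitochondrial clearance, came next. The carbonic anhydrase gene Car1, abundant in red cells and chosen here after its value was seen, had 0 counts in replicate 2 and 1 in replicate 1.

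Of 9 genes that handle free hemoglobin and heme, 7 reached 1 TPM in both libraries, and of 8 tested 2 were called higher and none lower. Haptoglobin, Hp, which binds free hemoglobin, was at 7.47 TPM in replicate 2 and 2.52 in replicate 1, with a log2 ratio of 1.83. The heme exporter gene Flvcr1 was at 1.90 and 0.880 TPM, with 1.16, a call lost with library totals (0.62). The highest were Lrp1 (23.6 and 17.6 TPM), a receptor for the hemopexin complex, and the heme transporter gene Slc48a1 (12.4 and 12.9 TPM). The median log2 ratio was 0.31, beside -0.01 over all tested genes, of which 8.31% were called higher.

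Markers of other blood cells were low in both libraries. The 9 platelet markers summed to 13.0 TPM in replicate 2 and 14.0 in replicate 1, led by Pf4 (8.28 and 10.5 TPM), with Itga2b (1.82 and 1.10 TPM) and Ppbp (11 and 4 counts) after it. The 9 neutrophil markers summed to 3.06 and 5.02 TPM, most of it Lcn2 (2.62 and 3.05 TPM). S100a9 had 0 counts in replicate 2 and 2 in replicate 1, Retnlg 0 and 3, and S100a8, named after its value was seen, 0 and 1. None of the 2 platelet and 1 neutrophil markers tested was called, beside 12.3% of all tested genes.

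The 7 leukocyte markers summed to 18.2 TPM in replicate 2 and 17.6 in replicate 1, led by Laptm5 (5.52 and 7.11 TPM), Cd52 (6.62 and 2.93 TPM) and the pan-leukocyte gene Ptprc (1.38 and 3.63 TPM). Of the 5 tested, 2 were called higher, Coro1a at 2.11 and Cd52 at 1.44, and 1 was called lower, the B-cell gene Cd79a at -1.38. Over all tested genes 8.31% were called higher and 12.3% in either direction. The Cd52 call was lost with library totals (0.91) and with the trend removed (1.28), and Ptprc was called lower with library totals, at -1.15. The 7 endothelial markers summed to 258 TPM in replicate 2 and 314 in replicate 1, with Plvap at 127 and 98.6 TPM, Pecam1 at 42.1 and 72.7 TPM and Emcn at 30.4 and 66.1 TPM. Tie1 was called higher at 1.04 and Emcn lower at -1.01, and with the trend removed neither was called (0.53 and -0.83). With library totals Tie1 was not called (0.51), and Pecam1 (-1.02), Cdh5 (-1.10) and Emcn (-1.55) were called lower. Their part in the hemoglobin difference was not tested.

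The 8 pancreas genes were mixed as well, with 1 called higher, the elastase gene Cela1 at 1.18, and 1 called lower, the glucagon gene Gcg at -1.19. The Cela1 call was lost with library totals (0.64) and with the trend removed (0.78), and the Gcg call with the trend removed (-0.99). Over all 11 lists without the members, 75 genes were tested, of which 9 were called higher and 3 lower. The 12 called genes are 16.0% of those tested, beside 12.3% over all tested genes. The balance turned round with library totals, which gave 3 higher and 13 lower, and with the trend removed it was 3 and 3. It moved in the same way over all tested genes. There 67.5% of 1533 calls were higher with TMM, 11.6% of 2945 with library totals and 46.8% of 1035 with the trend removed.

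**Figure D5:**
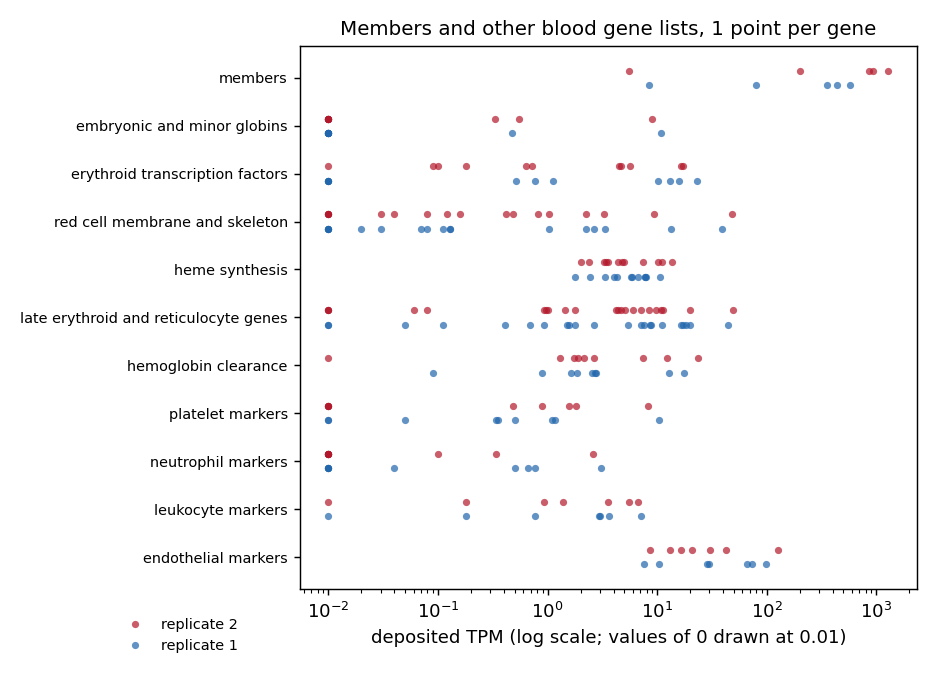
Deposited TPM on a log axis for the members and 10 other lists, with 1 point per gene, replicate 2 in the upper row of each list and replicate 1 in the lower row; values of 0 are drawn at 0.01. The hemoglobin genes stand to the right of every other gene in both libraries except Hbb-bt in replicate 1, at 79.7 TPM, which endothelial Plvap passes at 98.6 TPM.

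Few abundant genes were higher in replicate 2 by as much as hemoglobin. Among 243 other genes that averaged 1000 counts or more, 8 (3.29%) had a log2 ratio above that of summed hemoglobin, which was 1.43 (95% exact interval 1.39 to 1.48). The closest by log2 ratio, over these 2 libraries, were the elastase gene Cela2a at 1.47 (46734 TPM in replicate 2 and 16702 in replicate 1), the ribosomal protein gene Rpl13 at 1.38 (372 and 175 TPM), the elastase gene Cela3b at 1.50 (12649 and 5463 TPM), the ribosomal protein gene Rplp0 at 1.37 (279 and 141 TPM) and the ferritin light chain gene Ftl1 at 1.36 (444 and 206 TPM). The deposited posterior SD of these 5 genes was between 0.00133% and 0.601% of the count. With only 2 libraries this likeness is a single number per gene. The ranking rests on TMM ratios and was not made with the GC and length trend removed, which left Hba-a1 at 0.88 and Hba-a2 at 0.73.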

How the data were processed

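Polyadenylated RNA of 1 pancreas was measured in 2 technical libraries. Per the deposited README files, values rest on mm10 and GENCODE M4. No label or file header used here names the aligner or the quantifier. By the column names, the deposited expected count is an estimate per gene or transcript, and the deposited TPM and FPKM correct it for effective length. The effective length, the posterior SD of the count and the posterior mean TPM were deposited too and are entered as signal. The deposited percent of each isoform was checked against transcript TPM.

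GENCODE M21, annotated on GRCm38, gave symbols and positions for 42462 of 43346 gene rows. A further 26345 rows name no gene, hold 0 counts and were left out. Expected counts were rounded. TMM factors came from edgeR 4.0.16 (R 4.3.3). With 1 library a side, the planned tests were two-sided exact binomial tests with Benjamini-Hochberg adjustment over genes averaging 10 counts or more; log2 ratios had 0.5 added to each count, and intervals are Clopper-Pearson at 95%. Ratios of sums were compared with Fisher's exact test, adjusted over 4. The GC and length trend used 12309 nuclear genes (99.0% had a value). Promoters came from the RefSeq table. Alternatives were DESeq2 1.42.0 and upper quartile scaling, library totals, count filters, posterior means, other units and leaving out a library.

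The members and the 11 gene lists (121 symbols, of which 120 matched; Ahsp did not) were chosen with earlier results of these data known. Named were all members and minor globins, in each list the 3 genes with the highest mean TPM and every called gene, and the 5 abundant genes nearest to hemoglobin in log2 ratio. Both libraries share 1 animal, so no value measures variation between animals.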

Additional observations from a re-analysis of the deposited data

How the results depend on the processing

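The 4 globin genes were higher in replicate 2 under each of the 9 alternatives run on their ratio. Instead of 4 members called, 2 were called with library totals and 2 with the GC and length trend removed; the other alternatives gave 4. The Alas2 log2 ratio, 0.00, became 0.02 with 5 added to each count and was not called under any alternative. Over all genes, 1533 calls became 2945 with library totals, with 11.6% of them higher instead of 67.5%, and 649 at a mean of at least 50 counts. Removing the trend left 1035 calls, of which 46.8% were higher, and totals without mitochondrial genes, Gm42418, Gm26917 and Lars2 gave 1575, of which 787 were higher. The 12 calls among listed genes, 9 higher and 3 lower, became 16 with library totals (3 higher, 13 lower), 6 with the trend removed (3 and 3) and 6 at a mean of at least 50 counts.

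The mean alpha to beta ratio of 1.20 in TPM was 1.04 in counts, 1.37 per effective length of the full coding transcript and 1.08 per coding length. The Hba-a1 share of alpha, 46.2% of TPM, was 54.0% of counts. Alas2 per 1000 hemoglobin, 3.73 in TPM, was 11.8 in counts. These moves follow from the lengths used. Summed hemoglobin, 2364 TPM, was 3901 TPM when TPM was rescaled without mitochondrial genes, Gm42418, Gm26917 and Lars2 (5473 in replicate 2 and 2328 in replicate 1). Leaving out 1 library gave 1447 to 3281 TPM for summed hemoglobin, 1.70 to 5.76 for Alas2 per 1000 hemoglobin, 44.7% to 47.7% for Hba-a1 and 86.5% to 87.9% for Hbb-bs. The Alas2 counts limit its log2 ratio to an interval of -0.45 to 0.43. No paired analysis was possible because the libraries form 1 group.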
